A study of Mus musculus with 6 samples.

Results

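A set of 7 chemokine genes was followed across the cell types of the hypothalamus, Cxcl10, Ccl2, Ccl7, Ccl12, Cxcl1, Ccl3 and Ccl4, which are 7 of the 16411 genes listed. They were chosen by name, with their levels in these cells already known, and their UMIs (unique molecular identifiers, counted molecules) were summed per mouse and per cell type, microglia and vascular leptomeningeal cells (VLMCs) included. The levels below are therefore a description of these animals, and no p-value of a member is given. The cells came from male ob/ob mice, which lack leptin and are obese and diabetic, aged 11 weeks. Each had received 3 µg of FGF1 R50E, a variant of fibroblast growth factor 1, into a cerebral ventricle, and was killed on day 5. All animals belong to this 1 group, so nothing below measures an effect of the treatment. Of 6 labelled mice, 4 had cells in the table, mice 3, 4, 30 and 34, and each is 1 replicate. The other 2 were not analysed here. Any p-value below measures the spread between these 4 mice.

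Chemokines are small secreted proteins that attract leukocytes through G protein-coupled receptors. In the brain they are made by microglia, the resident macrophages, and under inflammatory signals also by glia, the cells of vessels and the meninges. Ccl3 and Ccl4 are the macrophage inflammatory proteins, which attract monocytes and lymphocytes, and Ccl3 signals through Ccr1. Ccl2, Ccl7 and Ccl12 are the monocyte chemoattractants and signal through Ccr2. Cxcl10 is an interferon-induced ligand of Cxcr3, carried by T cells, and Cxcl1 is a ligand of Cxcr2 on neutrophils.

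Per mouse, 3005 to 7386 cells and 3299971 to 8856079 UMIs were available, with a median of 909 to 1066 UMIs per cell. Mice 3, 4, 30 and 34 had 128, 34, 95 and 123 cells labelled microglia, 6, 12, 44 and 6 labelled VLMCs, and 440, 245, 380 and 465 labelled ependymal cells, whose cilia face the ventricle. The labels held against their markers: 8 of 8 microglial markers were detected in microglia of each mouse, with a summed level of 11498 to 14300 CPM (the UMIs of a gene relative to all UMIs of that mouse and type, the usual depth-scaled unit), against 168 to 330 CPM in astrocytes. All microglia of mice 3, 4 and 34 and 90 of 95 of mouse 30 held at least 2 of them. In mouse 30 these included 31 of 35 Ccl2-positive and 10 of 13 Cxcl1-positive microglia, whose median doublet scores were 0.0988 and 0.115, against 0.0536 and 0.0625 in the negative ones. The scores were also higher in microglia positive for Ccl7 (0.106 against 0.0536), Cxcl10 (0.0935 against 0.0545) and Ccl12 (0.0855 against 0.0536). Leaving out cells of high doublet score moved the mean levels of these 5 genes in microglia by less than 1 SD between mice. For Cxcl10, Ccl7, Ccl12 and Cxcl1 that SD was above the mean, so no fall could have reached it. In mouse 30 this setting left out only 6 of 95 microglia. The part of doublets in these levels was not tested. All 5 VLMC markers were detected in the VLMCs of each mouse, and all 4 ependymal markers in ependymal cells. Mouse 30 stood apart in genes unrelated to chemokines: the Y-linked Ddx3y was at 45.5 CPM over all its cells, against 111, 120 and 119 CPM in mice 3, 4 and 34, and Uty and Eif2s3y were lower too, at 11.2 and 28.5 CPM. Whether all cells of this library come from 1 male mouse was not tested, and this limits every value of mouse 30 below. The main levels and shares are also given without it. Of 19954 distinct cell barcodes, 194 occurred in more than 1 of the 4 libraries.

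The 7 genes lie on chromosomes 5 and 11 of the mouse genome (GRCm38, GENCODE vM21 annotation, all protein coding). Ccl2 (chr11:82035571-82037453, + strand), Ccl7 (chr11:82045712-82047525, +) and Ccl12 (chr11:82101845-82103400, +) are neighbours, with 8258 bases between the first 2. Ccl3 (chr11:83647844-83649355, −) and Ccl4 (chr11:83662584-83664683, +) point away from each other across 13228 bases. Cxcl1 (chr5:90891241-90893115, +) and Cxcl10 (chr5:92346638-92348889, −) lie on the other chromosome. Ccl2 and Ccl7 share an identical run of at most 23 bases between their transcripts, Ccl2 and Ccl12 one of 17, and Ccl3 and Ccl4 one of 9. How the counting treated reads shared between genes is not given in the sources used here.

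For 4 of the 7 members a promoter entry was at hand (RefSeq, GRCm38.p6). The 250 bases before the start of each are shown, 5′ to 3′ on the strand of the gene, to set Cxcl10 and Cxcl1, which were high in ependymal cells and VLMCs of mouse 30, beside Ccl12 and Ccl3, which were highest in microglia. In other types Ccl12 too was higher in mouse 30 than in the other mice, at far lower levels than in microglia. The start is that of RefSeq, which for Cxcl1 and Ccl3 differs from the GENCODE start given above. Capitals mark matches, on either strand, to 3 motifs: that of NF-κB (GGG, any 2 bases, TT, any base, CC), the interferon-stimulated response element (GAAA, any 2 bases, GAAA) and that of AP-1 (TGA, any base, TCA).
Cxcl10 (chr5:92348890-92349139, −): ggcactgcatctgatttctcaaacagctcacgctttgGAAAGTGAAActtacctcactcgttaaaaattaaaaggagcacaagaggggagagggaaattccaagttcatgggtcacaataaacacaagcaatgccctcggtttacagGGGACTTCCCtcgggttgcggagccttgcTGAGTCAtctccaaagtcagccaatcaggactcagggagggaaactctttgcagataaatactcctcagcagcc
Cxcl1 (chr5:90890995-90891244, +): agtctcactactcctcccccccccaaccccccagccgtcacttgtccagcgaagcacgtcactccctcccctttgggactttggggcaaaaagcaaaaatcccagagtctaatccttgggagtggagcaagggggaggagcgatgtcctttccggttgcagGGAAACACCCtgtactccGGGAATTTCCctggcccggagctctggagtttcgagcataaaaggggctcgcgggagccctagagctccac
Ccl12 (chr11:82101595-82101844, +): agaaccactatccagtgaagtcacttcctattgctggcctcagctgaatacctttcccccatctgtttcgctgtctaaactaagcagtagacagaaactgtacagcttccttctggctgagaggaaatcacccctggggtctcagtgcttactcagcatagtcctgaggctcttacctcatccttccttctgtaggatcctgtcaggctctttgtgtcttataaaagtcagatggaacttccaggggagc
Ccl3 (chr11:83649379-83649628, −): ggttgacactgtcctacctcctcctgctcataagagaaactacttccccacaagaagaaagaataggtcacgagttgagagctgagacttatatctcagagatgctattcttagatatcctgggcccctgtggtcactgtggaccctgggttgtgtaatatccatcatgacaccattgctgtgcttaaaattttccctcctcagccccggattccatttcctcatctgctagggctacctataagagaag
The Cxcl10 window held 1 match to each of the 3 motifs as spelled above. The interferon element lay 213 to 204, the NF-κB motif 103 to 94 and the AP-1 motif 74 to 68 bases before the start. Other spellings of a motif were not searched, so these counts can miss variants. The Cxcl1 window held 2 NF-κB matches, 89 to 80 bases before the start on the opposite strand and 71 to 62 bases before it on the strand of the gene. None of the matches overlapped another. These letters were not found in the windows of Ccl12 and Ccl3. Among 32851 promoter windows of the same length, 4.11% held the NF-κB motif, 2.98% the interferon element and 6.75% the AP-1 motif. A match describes the sequence and says nothing of binding. Ccl2, Ccl7 and Ccl4 had no entry.

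The first question was which cell type each chemokine was highest in. Ccl3, Ccl4 and Ccl12 had their highest level in microglia among the 8 types that had 20 or more cells in each mouse, and did so in all 4 mice. That is 3 of 7 members, beside 3.55% of 14712 genes with at least 10 UMIs. Ccl2 was highest in microglia in mice 3, 4 and 34 but in VLMCs in mouse 30, and Ccl7 in microglia in mice 4 and 34 and in VLMCs in mouse 30. Cxcl10 was highest in microglia in mice 3, 4 and 34, with the 95% Poisson intervals of the first 2 types overlapping in mice 4 and 34, and stood at 3731 CPM in both ependymal cells and VLMCs of mouse 30. Cxcl1 was highest in endothelial cells in mice 3 and 4, in VLMCs in mouse 30 and in microglia in mouse 34, where its interval overlapped that of endothelial cells. These orders leave out the 6 to 12 VLMCs of mice 3, 4 and 34; in mouse 4 those cells were above the types named, with 16 UMIs of Cxcl1 and 3 of Cxcl10.

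**Figure D1:**
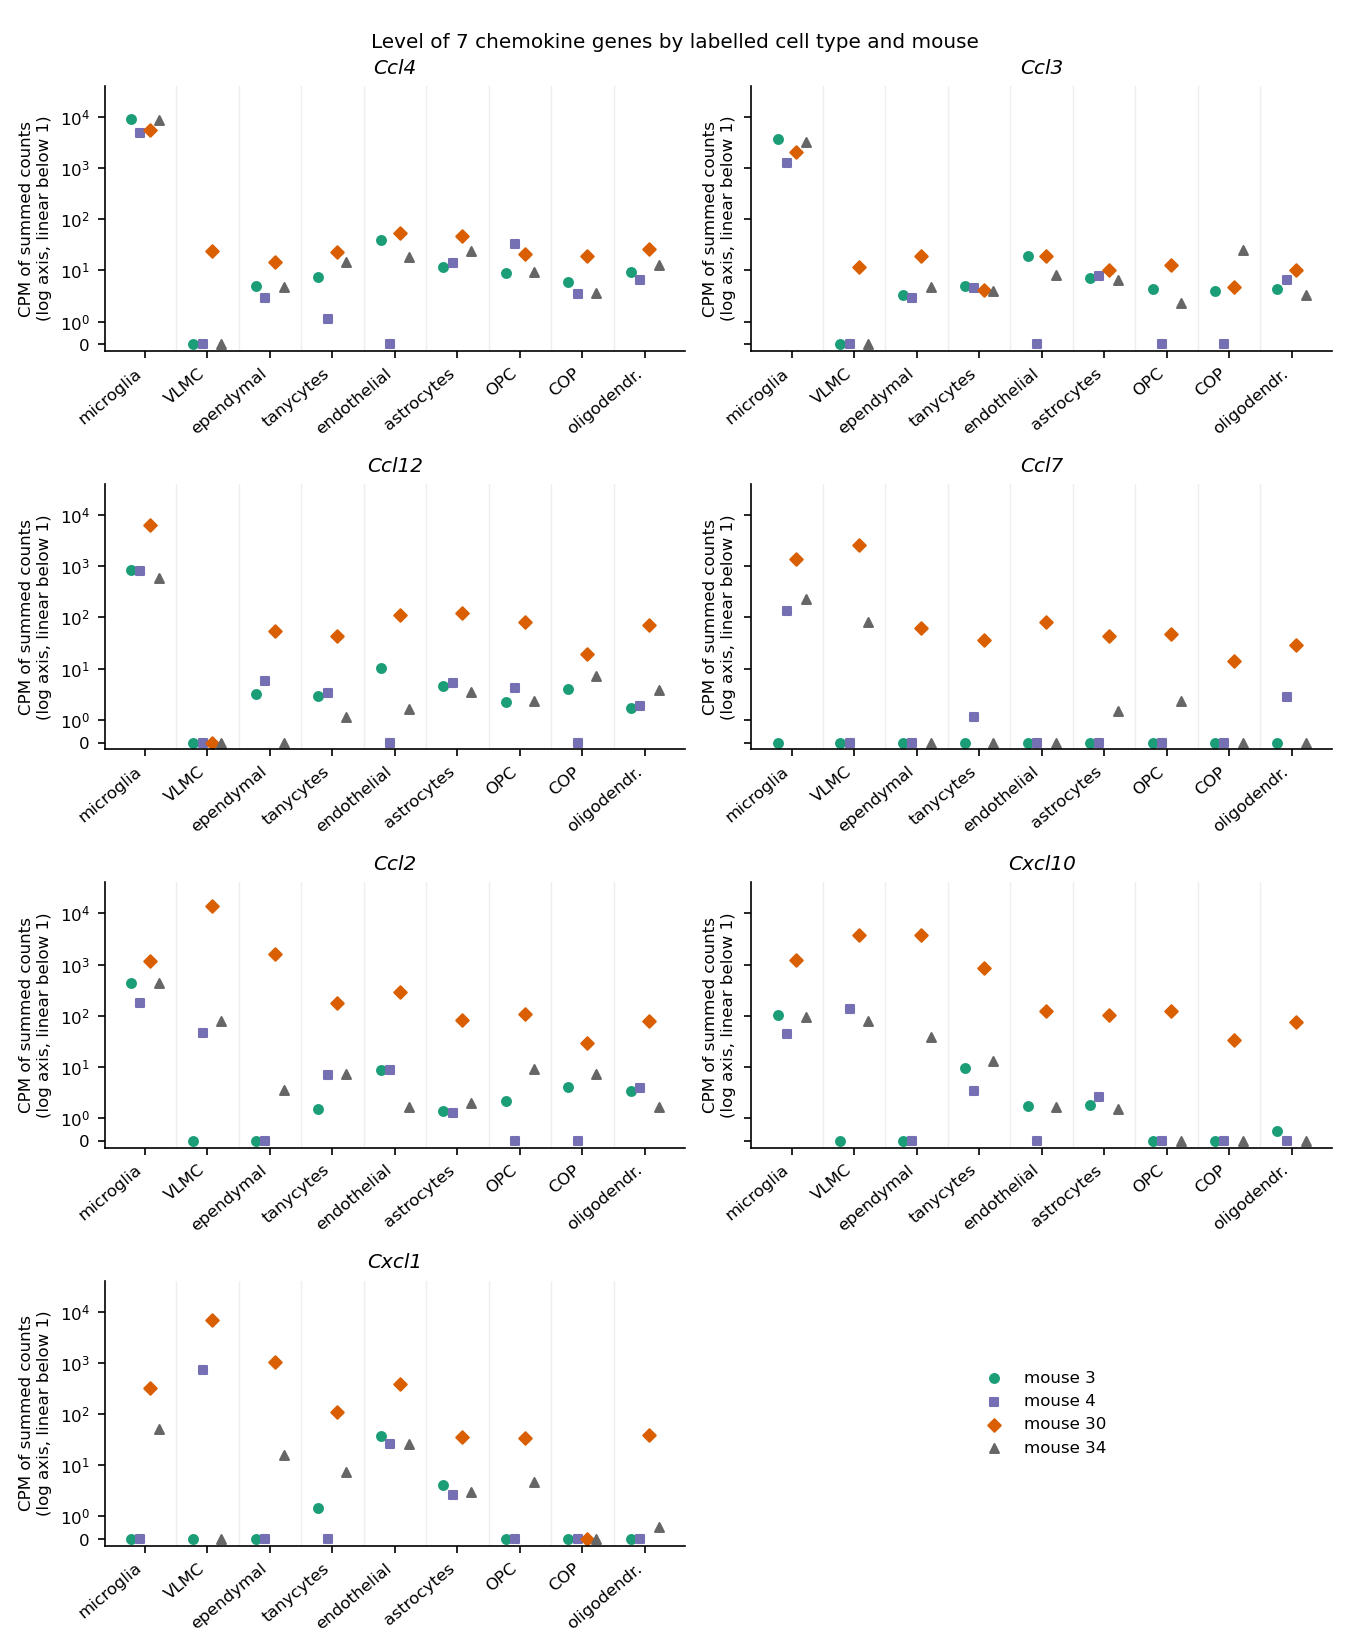
Level of each member (CPM of the summed counts, log axis that is linear below 1) in the 9 labelled cell types, with 1 point per mouse. Ccl4 and Ccl3 stand in microglia at over 1000 CPM in each mouse and at or below 53.1 CPM elsewhere, while mouse 30 (diamonds) lies above the other mice for Cxcl10, Ccl2, Ccl7 and Cxcl1 in most types. VLMC, vascular leptomeningeal cells; OPC and COP, oligodendrocyte precursors and committed oligodendrocyte precursors.

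Ccl4 and Ccl3, the macrophage inflammatory proteins, were microglial in every animal. Ccl4 in microglia of mice 3, 4, 30 and 34 was at 8940, 4737, 5546 and 8559 CPM (mean 6945 ± 2115, SD, n = 4, and 7412 without mouse 30). Ccl3 was at 3642, 1251, 2058 and 3243 CPM (2549 ± 1096, SD, n = 4, and 2712 without mouse 30). In both, mouse 4 was lowest and mouse 3 highest, and mouse 30 lay inside the range of the others. In the other 8 types Ccl4 did not pass 53.1 CPM, its level in endothelial cells of mouse 30, and Ccl3 did not pass 25.4 CPM, its level in committed oligodendrocyte precursors of mouse 34.

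In mice 3, 30 and 34 most microglia carried both transcripts, and in mouse 4 it was 16 of 34. A Ccl4 UMI was found in 103 of 128, 25 of 34, 77 of 95 and 99 of 123 microglia (80.5%, 73.5%, 81.1% and 80.5%), with 11.6, 8.48, 7.10 and 10.3 UMIs per positive cell. A Ccl3 UMI was found in 78.9%, 47.1%, 73.7% and 69.9%, with 4.81, 3.50, 2.90 and 4.48 UMIs per positive cell. Of the Ccl3-positive microglia, 92 of 101 in mouse 3, 16 of 16 in mouse 4, 63 of 70 in mouse 30 and 75 of 86 in mouse 34 also held Ccl4. In oligodendrocytes, which should lack these genes, 0.809% to 2.75% of cells held a Ccl4 UMI at median depths of 894 to 1304.5 UMIs, beside 893 to 1000.5 UMIs in microglia. In mouse 30 the share reached 4.32% in astrocytes and 3.56% in endothelial cells, and 1 endothelial cell of mouse 3 held 18 Ccl4 UMIs. Of the Ccl4-positive astrocytes and oligodendrocytes of mouse 3, 16.7% and 23.8% held 2 or more microglial markers, against 1.74% and 1.94% of the negative ones. In mouse 34 it was 7.32% and 9.52% against 1.82% and 2.47%, and in mouse 30 4.55% and 0% against 4.93% and 2.61%. The part of microglial RNA in these cells was not tested. With every cell thinned to 500 UMIs, 67.3% to 76.0% of microglia would keep a Ccl4 UMI.

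Ccl4 was spread over the microglia rather than held by a few of them. The 13, 4, 10 and 13 microglia richest in Ccl4, rounded up from a share of 0.1, held 33.0%, 34.0%, 33.8% and 34.4% of its microglial UMIs in mice 3, 4, 30 and 34. For Ccl3 the same numbers of cells held 29.6%, 53.6%, 37.9% and 36.4%. In mouse 3 the 13 richest microglia held 54.9% of the Ccl12 and 81.0% of the Ccl2 UMIs, but these were only 113 and 58 UMIs. In mouse 30, with 643 UMIs, the Ccl12 share was 42.6%. Such a share rises when UMIs are few, so no difference in spread between the genes is drawn.

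Ccl12, a mouse monocyte chemoattractant, was likewise found in microglia, but its level there differed between animals. It was at 847, 804, 6519 and 581 CPM in mice 3, 4, 30 and 34, so mouse 30 was 7.70-fold above the highest of the others, which lay close together. The share of microglia with a Ccl12 UMI was 35.2%, 38.2%, 78.9% and 25.2%, and positive cells held 2.51, 2.77, 8.57 and 2.23 UMIs. Both the share of positive microglia and the UMIs per positive cell were highest in mouse 30. VLMCs had little or none of Ccl12, Ccl3 and Ccl4. Ccl12 was listed at 0 in all of them, and Ccl3 and Ccl4 had 1 and 2 UMIs in mouse 30 and none in the other mice. For Ccl12 in mouse 30, no UMI in 44 cells allows up to 35.6 CPM and a share of up to 6.82% of cells with a captured UMI (136 to 536 CPM in the fewer VLMCs of the other mice), while Ccl2 and Ccl7 were abundant in those same cells.

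Ccl2 and Ccl7, the 2 other ligands of Ccr2, changed source between animals. Microglia of mice 3, 4, 30 and 34 had 435, 179, 1176 and 438 CPM of Ccl2. Their Ccl7 stood at 0, 134, 1389 and 227 CPM. The Ccl7 value of mouse 4 came from 1 cell with 6 UMIs. In mice 3, 4 and 34, microglia gave 72.5%, 36.4% and 62.7% of all Ccl2 UMIs of the mouse. In mouse 30 they gave 4.78%, beside 49.2% from VLMCs and 31.5% from ependymal cells.

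VLMCs of mouse 30 held the highest levels of Ccl2, Ccl7 and Cxcl1 of any type in that mouse. Ccl2 was at 14175 CPM (95% Poisson interval 13382 to 15003), found in 31 of 44 cells with 38.5 UMIs per positive cell and up to 155 UMIs in 1 cell. Ccl7 was at 2626 CPM in 30 cells, Cxcl10 at 3731 CPM in 29 cells and Cxcl1 at 6808 CPM in 35 cells. These 44 cells were 1.46% of the cells of mouse 30 and gave 25.2% of its UMIs of the 7 genes. In the other mice VLMCs were few, and most members were at 0 to 136 CPM in them. The exception was Cxcl1 in mouse 4, at 725 CPM, with 16 UMIs in 4 of 12 cells. With 6 to 12 VLMCs in the other mice, a comparison of VLMCs between animals rests on mouse 30 alone.

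Each of the 44 VLMCs of mouse 30 carried a VLMC marker. Of them, 30 held 3 or more of Cxcl10, Ccl2, Ccl7, Ccl12 and Cxcl1, with VLMC markers at 6632 summed CPM. The 7 VLMCs with none of the 5 genes had 3489 CPM of the same markers. The pericyte and smooth muscle list (Rgs5, Vtn, Acta2, Kcnj8) moved with the chemokines, at 3647 CPM in the 30 cells and 629 CPM in the 7, and its part in the result was not tested. Its 4 genes summed to 2566 CPM over the VLMCs of mouse 30 and to 272 to 1516 CPM in the other mice. Dcn, a collagen-binding proteoglycan that marks fibroblasts, was lower in VLMCs of mice 30 and 34, with 1782 and 1676 CPM, than in those of mice 3 and 4, with 6259 and 5889 CPM. All 31 Ccl2-positive VLMCs also held Cxcl1, beside 30.8% of the Ccl2-negative ones. Cxcl1 was just as common beside other members, in 29 of 30 Ccl7-positive and 28 of 29 Cxcl10-positive VLMCs.

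Cxcl10, the interferon-induced ligand of Cxcr3, was at 105, 44.7, 1237 and 92.7 CPM in microglia of mice 3, 4, 30 and 34. Microglia gave only 35.9%, 20%, 3.84% and 15.5% of its UMIs. The more numerous tanycytes gave 48.7%, 30%, 25.6% and 32.4%, and ependymal cells gave 55.8% in mouse 30 and 45.1% in mouse 34. Mice 3, 4 and 34 had only 39, 10 and 71 Cxcl10 UMIs. Of these, 14, 2 and 11 were in microglia and 19, 3 and 23 in tanycytes. The intervals of the microglial and tanycyte shares overlapped in these mice, so microglia are placed below tanycytes in mouse 30 alone. The share of microglia with a UMI was 6.25%, 2.94%, 37.9% and 4.07%. In ependymal cells it was at 0, 0, 3731 and 38.5 CPM. No UMI was seen in 440 ependymal cells of mouse 3 or 245 of mouse 4, which allows a share of up to 0.682% and 1.22%, whereas 25 of 465 cells (5.38%) held one in mouse 34 and 281 of 380 (73.9%) in mouse 30. These limits and shares count cells with a captured UMI, not cells that express the gene. The 25 cells of mouse 34 were deep, with a median of 2480 UMIs against 1233.5 in the others, and at 500 UMIs per cell the shares expected are 1.65% in mouse 34 and 64.6% in mouse 30. The level in mouse 30 was 96.9-fold that of mouse 34. Oligodendrocytes of mouse 30, with a median of 894 UMIs per cell beside 974.5 in ependymal cells, held a Cxcl10 UMI in 4.65% of cells.

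Ependymal cells of mouse 30 stood above its microglia in CPM for 3 of the 7 genes, Cxcl10, Ccl2 and Cxcl1. Ccl2 was at 1614 CPM in 181 ependymal cells and Cxcl1 at 1015 CPM in 150, against 1176 and 314 CPM in microglia. For Ccl2 the intervals were 1501 to 1732 CPM and 972 to 1411 CPM. Ccl7 and Ccl12 were low there, at 61.2 and 54.8 CPM. Of the Ccl2-positive ependymal cells, 174 of 181 also held Cxcl10, while 7.07% of the cells without Cxcl10 held Ccl2. For Cxcl1 it was 148 of 150, and 2.02% of the cells without Cxcl10. Cells with 3 or more of the 5 genes had 4680 summed CPM of ependymal markers and a median of 1021 UMIs, and cells with none had 4513 CPM and 903 UMIs. Microglial markers were at 203 and 139 CPM in the same cells. Tanycytes, the elongated glia of the ventricle floor, had Cxcl10 at 9.34, 3.40, 855 and 12.9 CPM.

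Cxcl1, the neutrophil attractant, was the member with the weakest tie to microglia. It was at 0, 0, 314 and 50.5 CPM in microglia, and a UMI was found in 13 of 95 cells in mouse 30 and 2 of 123 in mouse 34. In mice 3 and 4 none was found in 128 and 34 microglia, which allows up to 22.5 and 67.0 CPM. Endothelial cells held Cxcl1 in every animal, at 37.7, 26.0, 391 and 26.2 CPM. In mouse 3 they gave 22 of all 34 Cxcl1 UMIs.

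**Figure D2:**
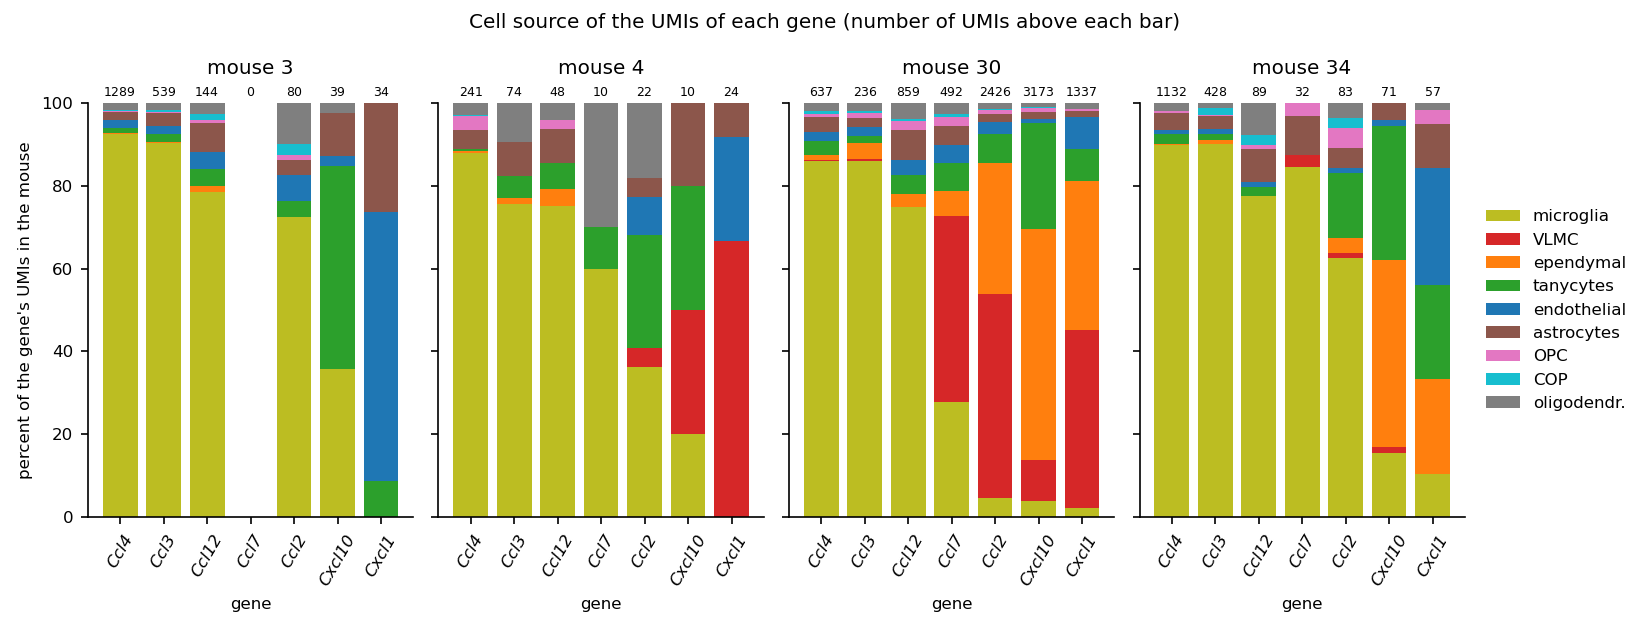
Percent of the UMIs of each gene that came from each cell type, with 1 panel per mouse and the number of UMIs of the gene above each bar. Microglia give 74.9% to 92.6% of the UMIs of Ccl4, Ccl3 and Ccl12 in the 4 mice, while VLMCs and ependymal cells together give most Ccl2, Cxcl10 and Cxcl1 UMIs in mouse 30.

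Over all 7 genes, microglia gave 87.7%, 74.6%, 19.6% and 82.8% of the UMIs in mice 3, 4, 30 and 34, although they were 1.07% to 3.16% of the cells. The mean was 66.2% ± 31.5 (SD, n = 4), and 81.7% without mouse 30. Ependymal cells gave 0.329%, 0.932%, 33.7% and 2.96% (mean 9.48% ± 16.2, SD, n = 4), and 1.41% without mouse 30. Pooled over the UMIs of all mice, the shares were 40.8% and 23.2%, because mouse 30 had 9160 of the UMIs of the 7 genes while the others had 429 to 2125. Split by gene, microglia gave 85.1% to 91.8% of the Ccl3 and Ccl4 UMIs, and mouse 30, with 85.9%, lay inside that range. They gave 62.3%, 45.6%, 12.7% and 49.7% of the UMIs of the other 5.

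**Figure D3:**
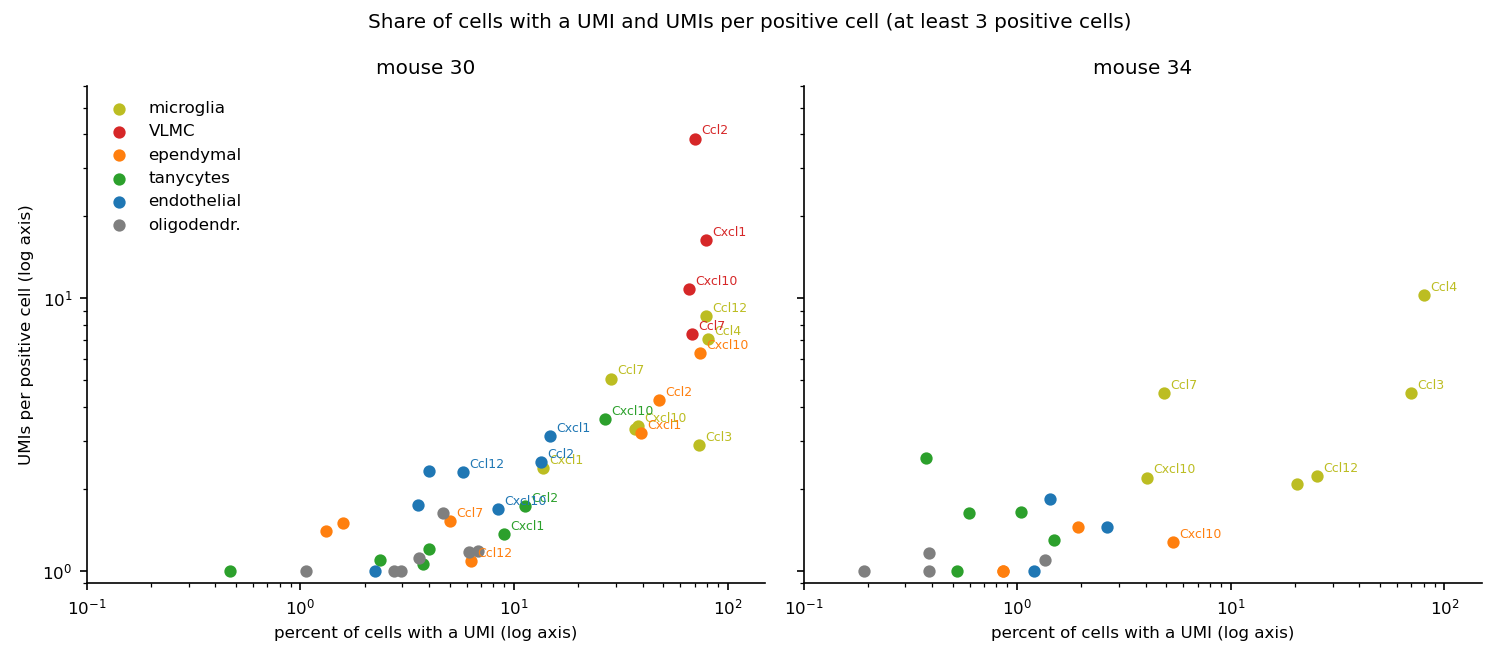
Percent of cells with a UMI against UMIs per positive cell (both on log axes) in 2 mice, with 1 point per gene and cell type that had at least 3 positive cells. In mouse 30, Ccl2 in VLMCs stands highest, with 38.5 UMIs in 70.5% of cells, while in mouse 34 the points above 25.2% of cells are Ccl4 and Ccl3 in microglia. The points of oligodendrocytes, of Ccl2 in microglia and of shares up to 4% carry no gene name.

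Mouse 30 was above the other 3 animals for 5 of the genes in nearly every type. More than 4-fold above the highest of the others were 5 of 7 members in ependymal cells (Cxcl10, Ccl2, Ccl7, Ccl12 and Cxcl1, beside 0.975% of 11287 genes with at least 10 UMIs there), and the same 5 in astrocytes (beside 0.268%), tanycytes (0.403%), oligodendrocytes (0.351%) and endothelial cells (0.301%). In oligodendrocyte precursors they were 5 of 6 (0.144%), in microglia 4 of 7 (0.980%; Ccl2 was 2.68-fold higher) and in VLMCs 4 of 4 (1.22%). In committed oligodendrocyte precursors it was 0 of 2 (0.0221%). Ccl3 and Ccl4 did not pass this mark in any type where they had 10 UMIs, and in microglia they were 0.565 and 0.620 times the highest of the other mice. The 5 genes were chosen with this known. Microglial markers moved with Ccl12 in these types: in mouse 30, 2 or more were held by 46.2% of Ccl12-positive endothelial cells against 1.89% of the negative ones, by 6 of 46 Ccl12-positive astrocytes against 19 of 463, and in tanycytes, ependymal cells and oligodendrocytes by 5.88%, 12.5% and 6.90% against 2.69%, 3.37% and 2.25%. Their part in the result was not tested.

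In mouse 30 the make-up of the UMIs of these 5 genes differed between types. Each UMI stands for 1 captured molecule at the 3′ end, so shares of UMIs need no scaling by length. Of 3070 UMIs of the 5 genes in ependymal cells, 57.6% were Cxcl10, 24.9% Ccl2, 15.7% Cxcl1, 0.945% Ccl7 and 0.847% Ccl12. Of 2301 UMIs in VLMCs, 51.8% were Ccl2, 24.9% Cxcl1, 13.6% Cxcl10, 9.60% Ccl7 and none Ccl12. Of 1049 UMIs in microglia, 61.3% were Ccl12, 13.1% Ccl7, 11.6% Cxcl10, 11.1% Ccl2 and 2.96% Cxcl1. Each of these types had its own order. Tanycytes had 70.2% Cxcl10 and endothelial cells 39.5% Cxcl1.

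In astrocytes, oligodendrocytes and oligodendrocyte precursors of mouse 30 the UMIs were few, and the leading gene was Ccl12, Ccl2 and Cxcl10, respectively. Cxcl10 made up 26.5%, 25.5% and 31.5% of 196, 141 and 92 UMIs in them, Ccl2 21.4%, 27.0% and 27.2%, and Ccl12 31.6%, 24.1% and 20.7%. Positive cells of these types held 1.00 to 2.42 UMIs of each of the 5 genes, the highest for Cxcl10 in 12 oligodendrocyte precursors, of which 1 held 14 UMIs. The part of free RNA in these low levels was not tested.

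**Figure D4:**
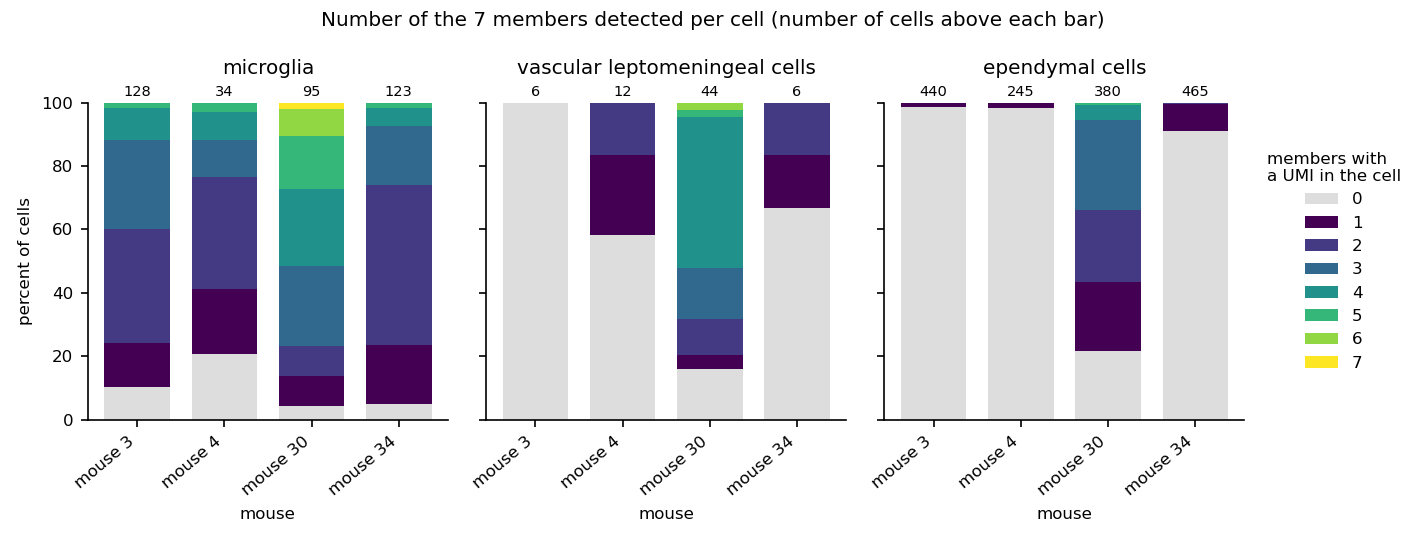
Percent of microglia, VLMCs and ependymal cells that held UMIs of 0 to 7 members, per mouse, with the number of cells above each bar. In mouse 30, 73 of 95 microglia, 30 of 44 VLMCs and 129 of 380 ependymal cells held 3 or more members, while no VLMC or ependymal cell of the other mice did.

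Several chemokines were often found in 1 cell. At least 3 members were held by 51 of 128, 8 of 34, 73 of 95 and 32 of 123 microglia in mice 3, 4, 30 and 34. In mice 3, 4 and 34, at most 5 microglia per mouse held 3 or more of the 5 genes other than Ccl3 and Ccl4, and in mouse 30 it was 33 cells. In ependymal cells, 0, 0, 129 and 0 cells held 3 or more members. Depth differed little: median UMIs per cell were 956.5, 1000.5, 893 and 918 in microglia.

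Cells labelled microglia were not of 1 kind. In 2, 2, 12 and 8 of them, in mice 3, 4, 30 and 34, UMIs of 2 or more of the 6 markers of border-associated macrophages (Mrc1, Cd163, Lyve1, Pf4, Ms4a7, F13a1) were present. These cells line the meninges and vessels of the brain. The split was chosen after values were seen. Of these, 2, 2, 11 and 8 also held at least 2 microglial markers, at a summed level of 4197 to 9582 CPM against 12222 to 14459 CPM in the other microglia.

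Ccl7 was concentrated in the cells with macrophage markers. They held 25 of the 27 microglial Ccl7 UMIs in mouse 34, all 6 in mouse 4 and 72 of 137 in mouse 30, while no Ccl7 was seen in mouse 3. In mouse 34 this is 3461 CPM (95% Poisson interval 2240 to 5109) in 8 cells, against 17.9 CPM (2.17 to 64.8) in the other 115. In mouse 30 it was 5449 CPM (4264 to 6862) in 12 cells against 761 CPM (587 to 970) in 83. Ccl2 was higher in these cells too, at 1574, 3422, 3406 and 2630 CPM against 418, 69.3, 831 and 296 CPM in the other microglia of mice 3, 4, 30 and 34. In mouse 4 the first value rests on 5 UMIs of 1 cell, and in mouse 3 on 3 UMIs of 1 cell. All 6 microglial Cxcl1 UMIs of mouse 34 were in these cells.

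Ccl4 had no such order across the animals. In mouse 34 it was at 2353 CPM in the cells with macrophage markers and 8961 CPM in the others, in mouse 30 at 4844 and 5655 CPM, and in mouse 3 at 0 and 9070 CPM. In mouse 4 the order was the other way, with 10951 CPM (6260 to 17784) in 2 cells against 4527 CPM (3915 to 5207) in 32. Without the cells with macrophage markers, mean Ccl7 in microglia was 195 CPM instead of 438 CPM and mean Ccl2 was 404 instead of 557 CPM, while Ccl4 and Ccl3 were at 7053 and 2478 CPM instead of 6945 and 2549 CPM. The SD between mice was 641 CPM for Ccl7 and 430 CPM for Ccl2. For Ccl7 it was above the mean, so no fall could have passed it and it cannot size this shift. The means also rest on mouse 30: without it, and with all microglia kept, Ccl7 was at 121 CPM and Ccl2 at 350 CPM.

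**Figure D5:**
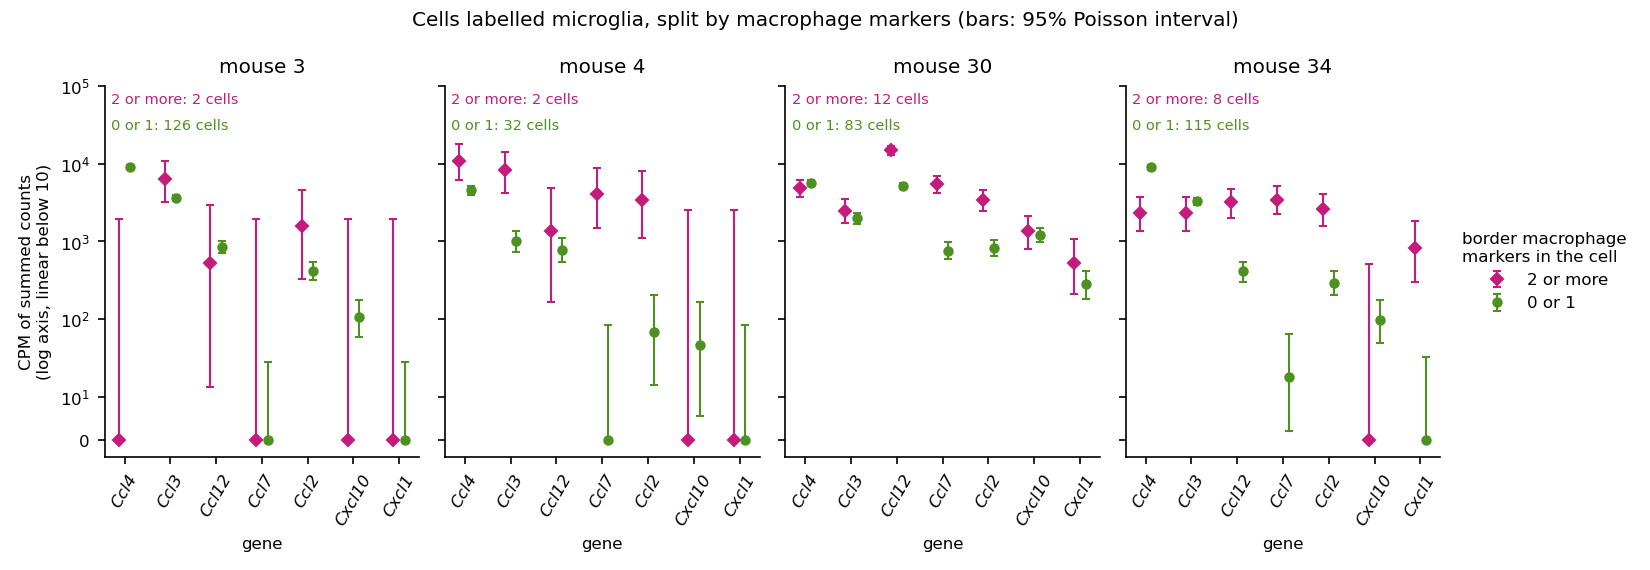
Level of each member (CPM of the summed counts, log axis that is linear below 10) in cells labelled microglia with UMIs of 2 or more border-associated macrophage markers and in those with 0 or 1, per mouse. Bars are 95% Poisson intervals for counting error. In mice 30 and 34 the intervals of Ccl7, Ccl2 and Ccl12 lie higher in the cells with macrophage markers, and in mouse 34 that of Ccl4 lies lower.

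Lyz2, a lysozyme of macrophages and monocytes, moved with the same cells. It was at 12639 CPM in the 12 cells of mouse 30 with macrophage markers and 2587 CPM in the other 83. Over all microglia it was at 195, 559, 3934 and 320 CPM in mice 3, 4, 30 and 34, while the homeostatic microglial genes Cx3cr1 (2398, 2257, 1247 and 2333 CPM), P2ry12 (600, 536, 264 and 514 CPM) and Tmem119 (899, 983, 466 and 792 CPM) were lowest in mouse 30. Of the other 5 genes of the monocyte and neutrophil list, S100a8 and S100a9 were at 0 in the microglia of each mouse, and the list summed to 195, 603, 4005 and 320 CPM. No gene of the T and NK cell list listed in the files (Cd3e, Cd3d, Nkg7) had a UMI in microglia. The part of incoming cells in the chemokine levels of mouse 30 was not tested.

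The next question was how far the members stood out between microglia and other types within the same animals. Fits with edgeR of microglia against ependymal cells, astrocytes and endothelial cells, with mouse as a block, gave log2 fold changes for 6 of the 7 members. Cxcl1 had too few counts in each fit. In these fits 44.4%, 37.8% and 34.5% of all genes tested were called, 15.8%, 17.8% and 14.1% higher and 28.6%, 20% and 20.3% lower in microglia, so a call between types is common. Ccl4 was higher in microglia by a log2 fold change of 10.16 ± 0.21 (SE, n = 4 mice) than in ependymal cells, by 8.66 ± 0.20 than in astrocytes and by 8.18 ± 0.20 than in endothelial cells. Ccl3 gave 8.63 ± 0.27, 8.76 ± 0.21 and 7.96 ± 0.22. Ccl12 gave 7.46 ± 0.26, 6.70 ± 0.21 and 6.43 ± 0.24. All 3 were higher in microglia in 4 of 4 mice against each type.

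In the main edgeR fit the differences were smaller for the genes that ependymal cells of mouse 30 also carried. Against ependymal cells, Ccl2 gave 3.51 ± 0.60 and Cxcl10 0.37 ± 0.49 (SE, n = 4), each higher in microglia in 3 mice and lower in mouse 30. Without mouse 30 they gave 7.71 and 2.62, and with DESeq2 7.35 and 3.65. Ccl2 gave 0.66 without the block, so its size varies with the method far beyond the SE. For Cxcl10 the sign turned with the processing, to -0.62 without mouse 3 and -1.15 without the block, so no direction is drawn. Ccl7 gave 5.28 ± 0.40, 5.81 ± 0.35 and 4.91 ± 0.43 against the 3 types, and it was higher in microglia in 3 mice and at 0 in both types in mouse 3. Against astrocytes and endothelial cells, Ccl2 gave 5.88 ± 0.32 and 3.89 ± 0.44, and Cxcl10 4.38 ± 0.32 and 4.02 ± 0.36.

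Of the receptors for these ligands, 4 are given here, and they had too few counts in microglia to be tested. Ccr1, a receptor of Ccl3, was seen in microglia of mouse 30 alone, at 101 CPM. Ccr2, the receptor of Ccl2, Ccl7 and Ccl12, was at 0, 44.7, 10.1 and 0 CPM in microglia. Cxcr3 was listed at 0 in microglia of each mouse. Ackr1, a scavenging chemokine receptor of venules, was at 0, 0, 148 and 1.64 CPM in endothelial cells of mice 3, 4, 30 and 34, where the value of mouse 30 came from 39 UMIs in 8 cells. Committed oligodendrocyte precursors held Ackr1 in every mouse, at 50.2, 47.5, 38.3 and 47.1 CPM.

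Among 25 other chemokine genes, 22 were listed, and few had enough counts to be tested. Against ependymal cells, 4 of 5 tested were higher in microglia (Ccl9, Cxcl2, Cxcl16 and Pf4) and 1 lower (Ccl27a). Against astrocytes, the same 4 of 6 were higher and Cxcl14 was lower. Against endothelial cells, Ccl9, Cxcl2 and Pf4 were higher. Cxcl12, a stromal chemokine, was lower by 6.58 ± 0.30 on the log2 scale and so in 4 of 4 mice. It had 4 UMIs in microglia and 1909 in endothelial cells. Cxcl2, a close relative of Cxcl1, was higher by 6.07 ± 0.34, 7.56 ± 0.28 and 4.84 ± 0.27 against the 3 types. It had 505 UMIs in microglia and 56, 21 and 51 in ependymal cells, astrocytes and endothelial cells. Unlike Cxcl1, it was present in microglia of each mouse, at 255, 67.0, 4339 and 337 CPM. Pf4 is also 1 of the 6 markers of border-associated macrophages. These markers summed to 3027 to 8029 CPM in the cells labelled microglia that held 2 or more of them. In the other microglia of mice 3, 4, 30 and 34 they summed to 0, 23.1, 129 and 17.9 CPM. Ccl19, which attracts lymphocytes and dendritic cells, was at 1521 CPM in VLMCs of mouse 30 and at 0 in those of the other mice.

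Genes of cytokines and the NF-κB pathway, which induces many chemokines, were mostly higher in microglia. By edgeR, 14 of 17 tested were higher than in ependymal cells, 15 of 16 than in astrocytes and 11 of 13 than in endothelial cells, and none was lower. The median log2 fold change of the list was 3.67, 5.80 and 2.02, beside -0.26, -0.08 and -0.12 over all genes tested. The cytokines led: Tnf was at 544 ± 210 CPM (SD, n = 4) in microglia and higher than in ependymal cells by 9.56 ± 0.41 on the log2 scale (adjusted p 8.22e-26 by edgeR), Il1a was at 533 ± 175 CPM and higher by 8.47 ± 0.37 (adjusted p 1.01e-25). Il1b was higher by 8.09 ± 0.38 (adjusted p 1.64e-24) and was at 390, 268, 1805 and 227 CPM in microglia, again with mouse 30 above the rest. Tnf, Il1a and Il1b were higher in microglia in 4 of 4 mice against each of the 3 types.

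Interferon pathway genes were less often tested. Against ependymal cells 2 of 4 were higher in microglia, against astrocytes 3 of 4 and against endothelial cells 1 of 8, and none was lower. Ifngr1, a subunit of the interferon-γ receptor, was at 217 ± 24.9 CPM (SD, n = 4) in microglia and higher by 1.98 ± 0.27, 2.48 ± 0.26 and 2.51 ± 0.26 on the log2 scale (adjusted p 1.63e-08, 8.21e-15 and 1.35e-08 by edgeR). The call of Ifnar1 against astrocytes (1.00 ± 0.41, adjusted p 0.0387, higher in 2 of 4 mice) was lost with DESeq2 (adjusted p 0.231), without mouse 3 (0.521) and with other settings, where it ranged from 0.0578 to 0.521.

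Immediate early genes, which dissociation of tissue can induce, were also higher in microglia: 9 of 11 tested against ependymal cells and 9 of 9 against astrocytes, but 2 of 11 against endothelial cells. Hspa1b was lower than in ependymal and endothelial cells and Hspa1a than in endothelial cells. Atf3 was at 1327 ± 707 CPM (SD, n = 4) in microglia and Btg2 at 1657 ± 262 CPM. The list summed to 14239, 12244, 9125 and 15576 CPM in microglia of mice 3, 4, 30 and 34 and was lowest in mouse 30, where Cxcl10, Ccl12, Ccl2 and Ccl7 were highest. The part of dissociation in the levels of Ccl3 and Ccl4 was not tested.

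In ependymal cells of mouse 30, 10 of 17 cytokine and NF-κB genes with at least 10 UMIs and 9 of 15 interferon genes were more than 4-fold above the highest other mouse, beside the same 0.975% of all genes. Nfkbia, which NF-κB induces as its own inhibitor, was at 42.0, 46.2, 1251 and 117 CPM, Gbp2, an interferon-induced GTPase, at 27.5, 34.7, 614 and 98.6 CPM, and the adhesion gene Vcam1 at 32.3, 23.1, 432 and 42.1 CPM in ependymal cells of mice 3, 4, 30 and 34. In microglia 1 of 19 and 5 of 12 passed, Il1b and the interferon genes Irf7, Ifit1, Isg15, Gbp2 and Rsad2. None of the 11 immediate early and heat shock genes passed in either type. These named genes were chosen after their values were seen.

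The genes most like each member across cell types were listed. Over 33 sums of 1 mouse and 1 type with at least 20 cells, on log2(CPM + 10), the genes most like Ccl3 were Pld4, Il1a and Ly86 (Pearson r 0.98, 0.98 and 0.97) and those most like Ccl4 were Bcl2a1b, Pld4 and Ccl3 (0.98, 0.98 and 0.97). Ccl12 was most like Il1b, Lyz2 and Cd14 (0.95, 0.94 and 0.93). Cxcl10 was most like Ccl2, Tnfaip2 and Cxcl1 (0.93, 0.89 and 0.86), Ccl2 most like Tnfaip2, Cxcl10 and Cxcl2 (0.95, 0.93 and 0.90), and Ccl7 most like Ccl2, Cxcl2 and Cxcl10 (0.89, 0.89 and 0.83). Cxcl1 was most like Iigp1, Irgm1 and Gbp2 (0.92, 0.90 and 0.90). Over the 24 sums without mouse 30, r stayed at 0.93 or above for the partners of Ccl3, Ccl4 and Ccl12, was 0.84 to 0.95 for Ccl2 and Tnfaip2 as partners of Cxcl10 and for the partners of Ccl2, 0.63 to 0.74 for those of Ccl7 and 0.29 between Cxcl10 and Cxcl1, and was 0.60 to 0.70 for the partners of Cxcl1. The sums share mice, libraries and depths, so these values describe the tables and carry no p.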

How the data were processed

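Single-cell libraries of dissociated hypothalamus were analysed from the raw counts that the authors deposited, whole UMI counts per gene and cell, with a cell type label, a mitochondrial percent and a doublet score (a fraction) deposited for each cell. The submitters' processing notes name Cell Ranger 1.2, Seurat and the builds GRCm38, mm10 and GRCh38, with no role. The method of labelling is not given in the sources used here. Cells held at least 487 UMIs. The 50172 cells of 12 other libraries in the table were not used. Counts were summed per mouse and type for 20151 cells and given as CPM, with exact 95% Poisson or Clopper-Pearson intervals, which cover counting error only, as do limits from 3 counts at 0. Doublets were not removed, and the cells with the highest 5% of the score were left out as an alternative. Microglia were compared with 3 types by a quasi-likelihood fit in edgeR 4.0.16 (R 4.3.3, TMM, filterByExpr, mouse as a block since both sums come from the same animal), called at a Benjamini-Hochberg adjusted p under 0.05 over all genes and a log2 fold change beyond 1. The fit was tested on simulated data. Types rest on the same counts, so counts of calls are descriptive. A gene could pass the filter through 1 type alone, so a fold against a type with few UMIs is loose. Named were the 7 members, receptors listed (1 gene of that list is not reported here), the called genes of each list (at most 4 per fit) and the 3 genes most alike to a member among 10101 genes with 200 UMIs. The members and lists were chosen with earlier results of these data known. Alternatives were DESeq2 1.42.0, other normalization, filters and depths, and leaving out each mouse.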

Additional observations from a re-analysis of the deposited data

Results flagged for a closer look

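For each member with at least 10 UMIs in a cell type that had at least 20 cells in every mouse, the 4 mice were screened for 1 animal far from the others (its gap to the nearest of them, divided by the range, above the 95% critical value of Dixon for 4 values). Of 50 values screened, 36 had such an animal, and it was mouse 30, with the highest level, in each of the 36. Chance would pick about 1 in 20 groups, or 5%, but the members were chosen with this pattern known, so the count describes them and is no test. Cxcl10 of mouse 30 was at 3731 CPM in ependymal cells, 1237 in microglia, 855 in tanycytes, 123 in oligodendrocyte precursors, 121 in endothelial cells, 104 in astrocytes and 74.1 in oligodendrocytes. Ccl2 was at 1614 CPM in ependymal cells, 106 in oligodendrocyte precursors, 175 in tanycytes, 285 in endothelial cells, 84.1 in astrocytes and 78.2 in oligodendrocytes. Ccl7 was at 1389 CPM in microglia, 79.7 in endothelial cells, 61.2 in ependymal cells, 46.7 in oligodendrocyte precursors, 44.0 in astrocytes, 35.8 in tanycytes and 28.8 in oligodendrocytes. Ccl12 was at 6519 CPM in microglia, 124 in astrocytes, 114 in endothelial cells, 80.7 in oligodendrocyte precursors, 70.0 in oligodendrocytes, 54.8 in ependymal cells and 43.2 in tanycytes. Cxcl1 was at 1015 CPM in ependymal cells, 391 in endothelial cells, 314 in microglia, 110 in tanycytes, 39.1 in oligodendrocytes, 36.0 in astrocytes and 34.0 in oligodendrocyte precursors. Ccl3 and Ccl4 were picked up in ependymal cells alone, at 19.0 and 14.8 CPM, which are 9 and 7 UMIs. Neither Ccl3 nor Ccl4 was picked up in microglia, nor was Ccl2.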

How the results depend on the processing

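The counts of genes called between microglia and ependymal cells, astrocytes and endothelial cells were 1885, 1805 and 1026. They were 3370, 2950 and 2169 with no filter on low counts, where 14684, 14858 and 14370 genes were tested, and 304, 303 and 231 with sums thinned to equal totals, where 646, 606 and 649 genes were tested. Leaving out each mouse in turn gave 1777 to 2141, 1590 to 2178 and 960 to 1209. Without the replicate block the counts were 1860, 1786 and 1023; no replicate numbers pair separate groups, since there is 1 group. DESeq2 called 1696, 1539 and 922. Cxcl10 against ependymal cells changed sign, with a log2 fold change of 0.37 becoming -1.15 without the replicate block and -0.62 to 2.62 when each mouse was left out in turn (-0.62 without mouse 3, 2.62 without mouse 30), and the cause was not tested. With DESeq2 it was 3.65. Ccl2 against ependymal cells, at 3.51, became 7.35 with DESeq2, 0.66 without the replicate block and 7.71 without mouse 30. Leaving out each mouse gave a microglial share of the UMIs of the members of 59.0% to 81.7% and an ependymal share of 1.41% to 12.5%. With cells of high doublet score left out these shares were 67.0% and 9.42%, and without other cells that held 2 or more microglial markers 68.6% and 9.33%. Of the levels, 508 moved by less than 1 SD between mice, an SD that mouse 30 widens, and 3 moved more. Of the shares of cells with a UMI, 551 moved less and 23 more. Leaving out 1 of 4 mice cannot move a mean by a full SD. The 63 levels and 63 shares of each such setting were thus bound to count as unmoved. Where the SD exceeds the mean, no fall can count as moved. Of the log2 fold changes, 563 kept their direction and either their call or, for members, a value within 1 SD between mice, 21 of members moved more, 6 lost the call and 2 changed sign. The setting without cells carrying macrophage markers was chosen after seeing the data. Depth limits the members at 0: with 34 microglia in mouse 4, 3 UMIs are 67.0 CPM.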
